A study of Mus musculus with 8 samples.

Results

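The genes described here encode the parts of the extracellular matrix other than collagens, together with the enzymes that process and crosslink collagen and the enzymes that remodel the matrix. A fixed list of 35 gene symbols defined the set. Each gene was represented by the probe set that carried its symbol alone and had the highest mean log2 signal over all 8 arrays. Of the 35 genes, 33 had such a probe set, out of 18193 genes so represented on the array. Fbn1 and Loxl2 had none under this rule, so their signals were not analysed here.

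Total RNA of whole mouse gastrocnemius, the large calf muscle, was measured on 1 Affymetrix array per sample. The 4 control samples were labelled wild type and the 4 GR_KO samples were labelled as glucocorticoid receptor knockouts, all on the background written C57/Bl6J. The study's design text names the knockout as GR(i)skm-/-, a line known from the literature for an inducible deletion of the receptor gene in muscle fibres. The sources used here do not give the Cre driver, the inducing agent, age, sex or any agent given to the controls. The comparison asks which muscle transcripts change with loss of the receptor. Whether each array holds a different animal is not stated, so every p-value refers to the variation among these 8 samples, part of which may be technical.

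The matrix of skeletal muscle surrounds each fibre with a basement membrane and binds fibres into bundles with fibrillar connective tissue. Fibroblasts and their progenitors make most of the fibrillar part, tendon cells make it where muscle joins tendon, and muscle fibres contribute to the basement membrane. Collagen is folded with dedicated chaperones, trimmed outside the cell and crosslinked by lysyl oxidases, while proteoglycans set fibril spacing and metalloproteinases with their inhibitors govern turnover. The glucocorticoid receptor, encoded by Nr3c1, is a hormone-activated transcription factor that binds DNA as a dimer, and glucocorticoids are known to restrain matrix synthesis in many connective tissues.

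The receptor regulates genes through DNA sequence, so the bases before the start site are shown for the 4 genes of the set with the smallest p-values that had a single window placed at the start of the gene. RefSeq promoter sequences of the build GRCm38.p6 held 24 of the 35 genes. Each printed window is the 250 bases before the start site, read 5′ to 3′ on the strand of the gene. Serpinh1 lies on the minus strand (chr7:99353240-99353489), Timp3 on the plus strand (chr10:86300162-86300411), Sparc on the minus strand (chr11:55420081-55420330) and Dpt on the plus strand (chr1:164796413-164796662). Capitals mark matches, on either strand, to the motifs named after the sequences.
Serpinh1: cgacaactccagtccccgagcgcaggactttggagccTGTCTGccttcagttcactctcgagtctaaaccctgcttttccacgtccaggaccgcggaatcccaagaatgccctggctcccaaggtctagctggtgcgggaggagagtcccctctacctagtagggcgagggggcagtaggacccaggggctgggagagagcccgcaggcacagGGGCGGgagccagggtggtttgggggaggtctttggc
Timp3: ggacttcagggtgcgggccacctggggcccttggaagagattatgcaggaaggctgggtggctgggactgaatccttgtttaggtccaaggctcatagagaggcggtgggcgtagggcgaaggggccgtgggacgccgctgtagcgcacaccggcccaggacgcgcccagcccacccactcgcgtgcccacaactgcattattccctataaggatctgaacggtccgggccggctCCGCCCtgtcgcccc
Sparc: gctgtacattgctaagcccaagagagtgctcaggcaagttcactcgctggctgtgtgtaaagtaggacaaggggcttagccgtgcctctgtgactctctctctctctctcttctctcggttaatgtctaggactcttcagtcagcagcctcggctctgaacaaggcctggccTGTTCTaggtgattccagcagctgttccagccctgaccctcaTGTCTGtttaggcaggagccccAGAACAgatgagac
Dpt: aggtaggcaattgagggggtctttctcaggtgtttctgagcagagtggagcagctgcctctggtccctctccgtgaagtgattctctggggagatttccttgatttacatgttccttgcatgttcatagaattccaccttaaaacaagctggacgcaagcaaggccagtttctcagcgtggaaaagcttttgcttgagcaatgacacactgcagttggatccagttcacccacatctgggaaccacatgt
The motifs searched were the full glucocorticoid response element, its half-site AGAACA, the TATA box TATAAA, the CCAAT box, the GC box GGGCGG, the AP-1 site TGANTCA and the SMAD box CAGACA. The full element is the half-site, 3 free bases and the reverse complement of the half-site, so the half-site lies inside it, and the others do not contain one another. The full element was found in the windows of 0 of the 24 genes and in 0.00913% of all 32851 windows of this length. Its half-site was found in 5 of the 24, namely Bgn, Fbln1, Lama2, Sparc and Tnxb, and in 16.1% of all windows. Sparc held 2 half-sites and 1 SMAD box. Serpinh1 held a GC box and a SMAD box, Timp3 a GC box, and Dpt none of the 7 motifs. Over the set, the GC box occurred in 15 of 24 genes, Fbn1 among them, against 32.7% of all windows, the SMAD box in 8 of 24 against 17.1%, the CCAAT box in 8 of 24 against 33.8%, the TATA box in 3 of 24 against 12.4% and the AP-1 site in 1 of 24 against 6.75%. These are matches of letters, not binding sites, over 28 windows of the 24 genes. A gene was counted when any of its windows held the motif. The percentages count single windows, so the gene counts and the percentages are not in the same unit.

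The deposited values were MAS5 signals, a linear measure of probe-set brightness that the authors had scaled to the same trimmed mean on every array. The targeted gene was lower in GR_KO muscle at 5 of 5 Nr3c1 probe sets above the signal filter, from 1.25-fold to 3.88-fold. The brightest, 1421867_at, read 289, 213, 287 and 513 on control and 222, 169, 120 and 105 on GR_KO replicates 1 to 4, 2.09-fold lower with overlapping groups (limma adjusted p = 0.777). At 1460303_at the signals were 377, 307, 307 and 352 against 134, 79, 76 and 94, 3.59-fold lower without overlap. Whether these probe sets lie inside the deleted stretch was not analysed here. Fkbp5, a glucocorticoid-induced co-chaperone, was 3.85-fold lower (limma adjusted p = 0.0132). Control replicate 4 stood apart from the other 7 arrays across the whole table. It had the lowest signal of the 8 for 27.9% of all genes tested and the highest for 26.4%, and its spike-in signal was 59.2 against 29.9 to 43.7 elsewhere. Muscle fibre genes were bright, as a check of the tissue: the summed signal of 18 fibre markers reached 320442 on control replicate 4, while elsewhere it ran from 139449 to 215356.

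No gene of the set passed the threshold, an adjusted p under 0.05 in limma over the 11062 genes whose mean signal was above 19.4. All 33 genes were above that level and were tested. The count was 0 of 33, against 0.0542% of all genes tested, where the 6 called genes were all lower in GR_KO muscle. At an unadjusted p under 0.05 there were 2 of 33, Serpinh1 and Timp3, both higher, against 4.63% of all genes, or 2.37% higher and 2.26% lower. The adjusted p-values of the set lay between 0.880 and 0.987. Control and GR_KO signals overlapped for each of the 33 genes, whereas 2.58% of all genes tested had groups that did not overlap. With probe sets averaged per gene, Sparc did not overlap (1 of 28 genes, against 3.03% of all genes), and without GR_KO replicate 1, 6 of 33 genes did not, against 12.4%.

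Most genes of the set nevertheless had a higher mean in GR_KO muscle, by small amounts. The mean log2 signal was higher in 26 of 33 genes and lower in 7, against 52.2% higher among all genes tested. The median log2 difference, GR_KO minus control, was 0.28 in the set and 0.01 over all genes. Differences above 0.3 were found for 15 of 33 genes, against 11.4% of all genes, and 1 of 33, Pdgfra, was below -0.3, against 12.0%. These counts describe the set and carry no test. Without control replicate 4 the median was 0.12, with 24 of 33 genes higher, against a median of 0.02 and 53.9% of all genes higher. In whole muscle, more cells of a type and more RNA per cell cannot be told apart.

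**Figure D1:**
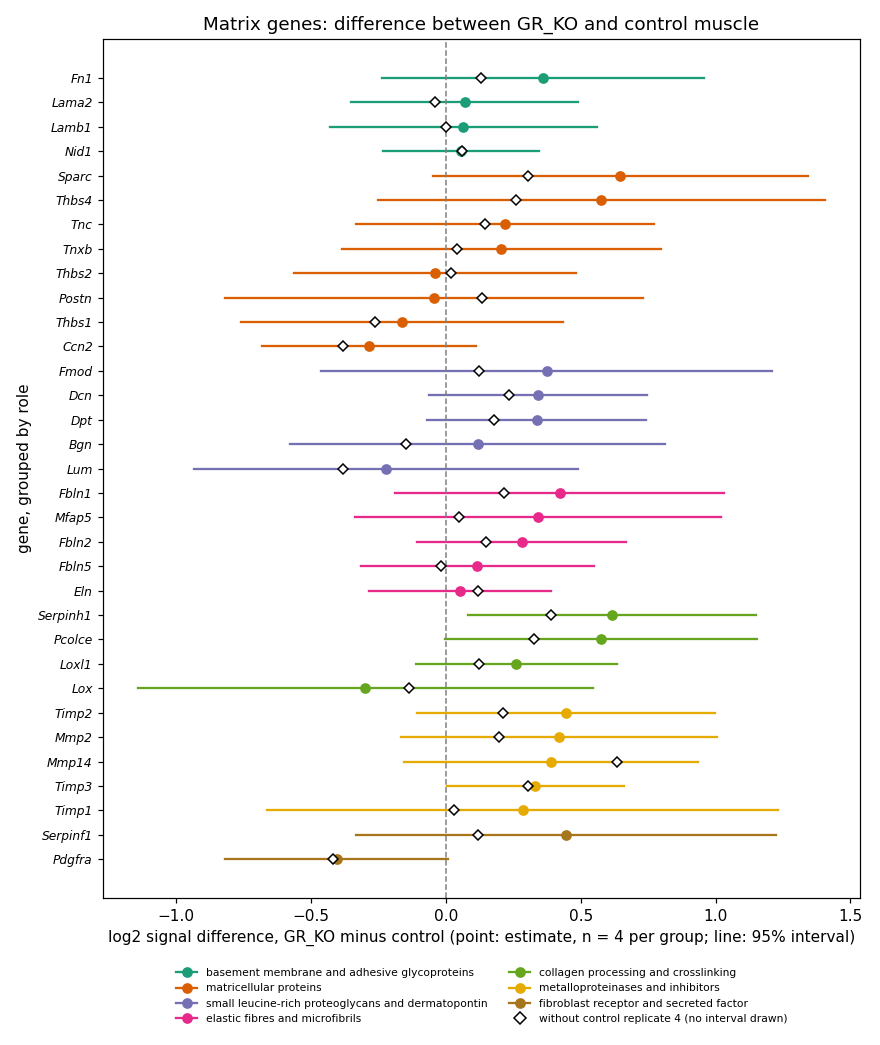
Log2 signal difference, GR_KO minus control, for 33 matrix genes grouped by role, on the x axis, with the gene on the y axis. Filled points are estimates from 4 arrays per group with 95% intervals of the fit, and open diamonds are the estimates without control replicate 4; 2 of the 33 intervals leave out 0, and most diamonds lie nearer to 0 than the points.

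Genes of collagen folding, trimming and crosslinking had the highest median log2 difference of any role, 0.42 over 4 genes. Serpinh1 encodes the collagen-specific chaperone of the endoplasmic reticulum, and its probe set 1456733_x_at had signals of 483, 735, 625 and 323 in control replicates 1 to 4 and 624, 744, 994 and 854 in GR_KO replicates 1 to 4. Of the GR_KO signals 3 lay above the highest control, while the lowest, 624, lay just under control replicate 3. The GR_KO mean was 1.53-fold higher, a log2 difference of 0.61 ± 0.24 (SE, 95% interval 0.08 to 1.15, unadjusted p = 0.0278, adjusted p = 0.880 in limma). An exact permutation test over the 70 arrangements of 4 against 4 arrays gave p = 0.0857, two-sided, where the smallest p possible is 0.0286. Without control replicate 4 the log2 difference was 0.39. A second Serpinh1 probe set above the filter gave 0.46 with all arrays. It read 341, 537, 661 and 250 on the controls and 472, 478, 662 and 724 on the GR_KO arrays. There GR_KO replicates 1 and 2 lay below control replicates 2 and 3.

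Pcolce encodes the secreted enhancer of the proteinase that trims the carboxyl end of procollagen. Its probe set 1437165_a_at read 292, 453, 437 and 194 on the controls and 425, 386, 577 and 583 on the GR_KO arrays. GR_KO replicates 3 and 4 were above all controls, and replicates 1 and 2 lay among them. The log2 difference was 0.57 ± 0.26 (SE, adjusted p = 0.880), with 0.60 at a second probe set, and 0.33 without control replicate 4. The lysyl oxidases, copper enzymes that crosslink collagen and elastin, had differences of opposite sign at their brightest probe sets. Loxl1 had a log2 difference of 0.26, and 0.12 without control replicate 4, with GR_KO signals from 211 to 271 and control signals from 151 to 246. Lox was dim, with signals from 14 to 48 over the 8 arrays. Its log2 difference of -0.30 had a 95% interval from -1.14 to 0.54, and was -0.14 without that array. Leaving out GR_KO replicate 2 gave 0.03. Other Lox probe sets, below the signal filter, gave 0.27 and 0.91, so the sign for Lox was not settled.

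Among matricellular proteins, which bind matrix and cell receptors without building fibres, the direction was divided: 4 of 8 genes had a higher and 4 a lower mean in GR_KO muscle. Sparc, a collagen-binding glycoprotein, had the highest log2 difference of the 33 genes, 0.65 ± 0.32 (SE, 95% interval -0.05 to 1.34, adjusted p = 0.880). Its probe set 1416589_at read 2713, 3890, 4148 and 1367 in control replicates 1 to 4 and 3126, 4474, 5201 and 4952 in the GR_KO replicates. The 3 highest GR_KO signals lay above every control, while control replicate 4 lay far below the other 7 arrays. Other Sparc probe sets gave 0.38 and 0.21, and without control replicate 4 the log2 difference was 0.31.

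Thbs4, a thrombospondin of tendon and muscle, had control signals of 245, 505, 482 and 162 and GR_KO signals of 390, 296, 566 and 732. Its 1.49-fold higher mean had a wide interval, from -0.25 to 1.41 on the log2 scale, and the log2 difference of 0.58 was 0.26 without control replicate 4. Tnc and Tnxb, the tenascins C and X, had log2 differences of 0.22 and 0.21, which were 0.15 and 0.04 without that array. Ccn2, a connective tissue growth factor that is a known target of TGF-beta, read 315, 301, 272 and 226 on the controls and 233, 168, 241 and 281 on the GR_KO arrays, a log2 difference of -0.28 ± 0.18 (SE, adjusted p = 0.880). None of its GR_KO signals was above the control median, and without control replicate 4 the difference was -0.38. Thbs1, which can activate latent TGF-beta, had -0.16, or -0.26 without control replicate 4. Thbs2 and Postn (periostin) both had -0.04, and without that array 0.02 and 0.13. Thbs2 read 38, 36, 49 and 48 on the controls and 59, 33, 41 and 36 on the GR_KO arrays, and a dimmer probe set of it gave 0.59. At that probe set control replicate 4 was at 8 and the other controls between 20 and 24, while at the brighter one the groups overlapped throughout.

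Small leucine-rich proteoglycans coat collagen fibrils and limit their width. Decorin, Dcn, had signals of 3854, 4894, 4481 and 3265 in control and 3809, 6039, 5796 and 5336 in GR_KO muscle. GR_KO replicates 2 to 4 exceeded every control, while GR_KO replicate 1 lay below 3 of them. The mean was 1.27-fold higher, with a log2 difference of 0.34 ± 0.18 (SE, 95% interval -0.06 to 0.75, adjusted p = 0.880). Without control replicate 4 it was 0.23, and a much dimmer probe set of Dcn gave 0.0137 with all arrays. Dermatopontin, Dpt, which binds decorin, read 510, 686, 553 and 371 on the controls and 560, 634, 739 and 696 on the GR_KO arrays. GR_KO replicates 3 and 4 lay above every control and replicates 1 and 2 among them. The log2 difference was 0.34 ± 0.19 (SE, adjusted p = 0.880), and 0.18 without control replicate 4.

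Fibromodulin, Fmod, was the most variable proteoglycan within GR_KO muscle. Its signals were 315, 437, 415 and 192 in control and 402, 194, 747 and 530 in GR_KO replicates 1 to 4, a 3.85-fold range among the latter. All 6 of its probe sets above the signal filter had a higher GR_KO mean, with log2 differences from 0.34 to 0.59, and GR_KO replicate 2 was the lowest GR_KO array on each. Without control replicate 4 the brightest probe set gave 0.12, against 0.37 with it. Biglycan, Bgn, the closest relative of decorin in the set, read 332, 463, 485 and 201 on the controls and 276, 269, 545 and 513 on the GR_KO arrays. Here GR_KO replicates 1 and 2 lay below 3 of the controls and replicates 3 and 4 above all of them. The log2 difference of Bgn was 0.12 ± 0.32 (SE, adjusted p = 0.947), its other probe sets gave 0.13 and -0.23, and without control replicate 4 it was -0.15. Lumican, Lum, was led by control replicate 1 at 196 and GR_KO replicate 1 at 177, the other 6 arrays lay between 72 and 106, and its log2 difference was -0.22, or -0.38 without control replicate 4.

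All 5 genes of elastic fibres and microfibrils had a higher GR_KO mean, with a median log2 difference of 0.28. The fibulins join elastin to microfibrils and basement membranes. Fbln2 read 291, 309, 309 and 209 in control and 269, 319, 388 and 380 in GR_KO muscle, a log2 difference of 0.28 ± 0.18 (SE, adjusted p = 0.880), and 0.15 without control replicate 4. Of its GR_KO signals 3 lay above every control and 1 below 3 controls. Fbln1 was dim, between 18 and 47 on all arrays, with 0.42, and Fbln5 had 0.12, which were 0.22 and -0.02 without that array. Mfap5, a glycoprotein bound to fibrillin, had 0.34, and 0.05 without control replicate 4. Elastin, Eln, had the lowest value of these, 0.05 ± 0.15 (SE, adjusted p = 0.952), or 0.12 without control replicate 4, with signals of 155, 159, 165 and 193 on the controls and 170, 148, 212 and 170 on the GR_KO arrays. The groups overlapped, with 1 GR_KO array above every control and 1 below. A dimmer probe set of Eln gave -0.98, where GR_KO replicates 1 and 2 were at 17 and 9 and all other arrays between 33 and 61.

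Basement membrane and adhesive genes had a median log2 difference of 0.07 over 4 genes, and 0.03 without control replicate 4. Nidogen, Nid1, which links laminin to type IV collagen, varied least among controls, with signals from 337 to 360, and spanned 325 to 415 in GR_KO muscle. Its log2 difference was 0.05, with a 95% interval from -0.24 to 0.34. Lama2, the laminin alpha chain of the muscle fibre basement membrane, had 0.07 (95% interval -0.35 to 0.49), and -0.04 without that array. Lamb1, a laminin beta chain, read 169, 121, 143 and 119 in control and 165, 90, 181 and 155 in GR_KO muscle, a log2 difference of 0.06 (95% interval -0.43 to 0.56), and -0.0013 without that array. GR_KO replicate 2 was the lowest array and GR_KO replicate 3 the highest, with the controls between. Other probe sets of Lamb1 above the filter gave -0.15 and -0.02. Fibronectin, Fn1, the adhesive glycoprotein on which fibroblasts assemble matrix, had the highest value of the group, 0.36 ± 0.27 (SE), and 0.13 without control replicate 4, with control signals from 254 to 600 and GR_KO signals from 372 to 666.

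Metalloproteinases and their tissue inhibitors had a higher GR_KO mean in 5 of 5 genes, with a median log2 difference of 0.39. Timp3, the inhibitor that stays bound to matrix, had the narrowest interval of these. Its signals were 614, 597, 494 and 523 in control and 727, 864, 612 and 618 in GR_KO muscle, so 3 GR_KO arrays exceeded every control and the last, 612, lay just under the highest control, 614. The log2 difference was 0.33 ± 0.15 (SE, 95% interval 0.0031 to 0.66, unadjusted p = 0.0482, adjusted p = 0.880, exact permutation p = 0.0571). It was 0.30 without control replicate 4, so this value depended little on that array, but its dimmer probe sets gave 0.26, 0.18 and -0.14.

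Timp2 takes part, with Mmp14, in the activation of the gelatinase Mmp2. The brightest Timp2 probe set read 930, 1280, 1323 and 606 on the controls and 961, 1510, 1555 and 1455 on the GR_KO arrays. Here again GR_KO replicate 1 lay among the controls and the other GR_KO replicates above them. The log2 difference was 0.45 ± 0.25 (SE, adjusted p = 0.880), and all 5 bright probe sets were above 0, from 0.08 to 0.51. Mmp2 had signals of 157, 228, 297 and 118 in control and 225, 203, 300 and 293 in GR_KO muscle, a log2 difference of 0.42 ± 0.27 (SE, adjusted p = 0.880). Only GR_KO replicate 3 exceeded the highest control, and control replicate 4 was the lowest array. Without control replicate 4 the values were 0.21 for Timp2 and 0.20 for Mmp2. Timp1 was dim and variable, with control signals from 18 to 68, and had 0.28, or 0.03 without control replicate 4.

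Mmp14, the membrane-bound activator of Mmp2, had its highest signal on control replicate 4, which was also the highest control for Lox, Postn and Eln. Its signals were 67, 70, 94 and 150 in control replicates 1 to 4 and 112, 110, 109 and 145 in GR_KO replicates 1 to 4. Control replicate 4 exceeded all other arrays, whereas controls 1 to 3 lay below all 4 GR_KO arrays. With all arrays the log2 difference was 0.39 ± 0.25 (SE, adjusted p = 0.880). Without control replicate 4 it was 0.63, a 1.55-fold difference (unadjusted p = 0.00508, adjusted p = 0.734 in limma, with 4.57% of all genes at an unadjusted p under 0.05), and Mmp14 was then the 1 gene of 33 whose groups did not overlap, against 4.9% of all genes. The other probe sets of Mmp14 lay below the signal filter.

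The remaining pair is made by or marks fibroblasts. Pdgfra encodes the growth factor receptor that marks fibro-adipogenic progenitors, the resident mesenchymal cells of muscle. It had the lowest log2 difference of the 33 genes, -0.41 ± 0.19 (SE, 95% interval -0.82 to 0.01, unadjusted p = 0.0537, adjusted p = 0.880, exact permutation p = 0.0857). Its signals were 204, 160, 212 and 183 in control and 203, 129, 119 and 132 in GR_KO muscle, so 3 GR_KO arrays lay below every control and GR_KO replicate 1 lay near the top of them. A dimmer probe set gave -0.22, and leaving out control replicate 4 gave -0.42. Serpinf1, a secreted inhibitor of vessel growth, had 0.45 ± 0.35 (SE, adjusted p = 0.880), and 0.12 without control replicate 4. Its control signals ran from 174 to 550 and its GR_KO signals from 343 to 637. A dimmer probe set of Serpinf1 gave 0.07 with all arrays.

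**Figure D2:**
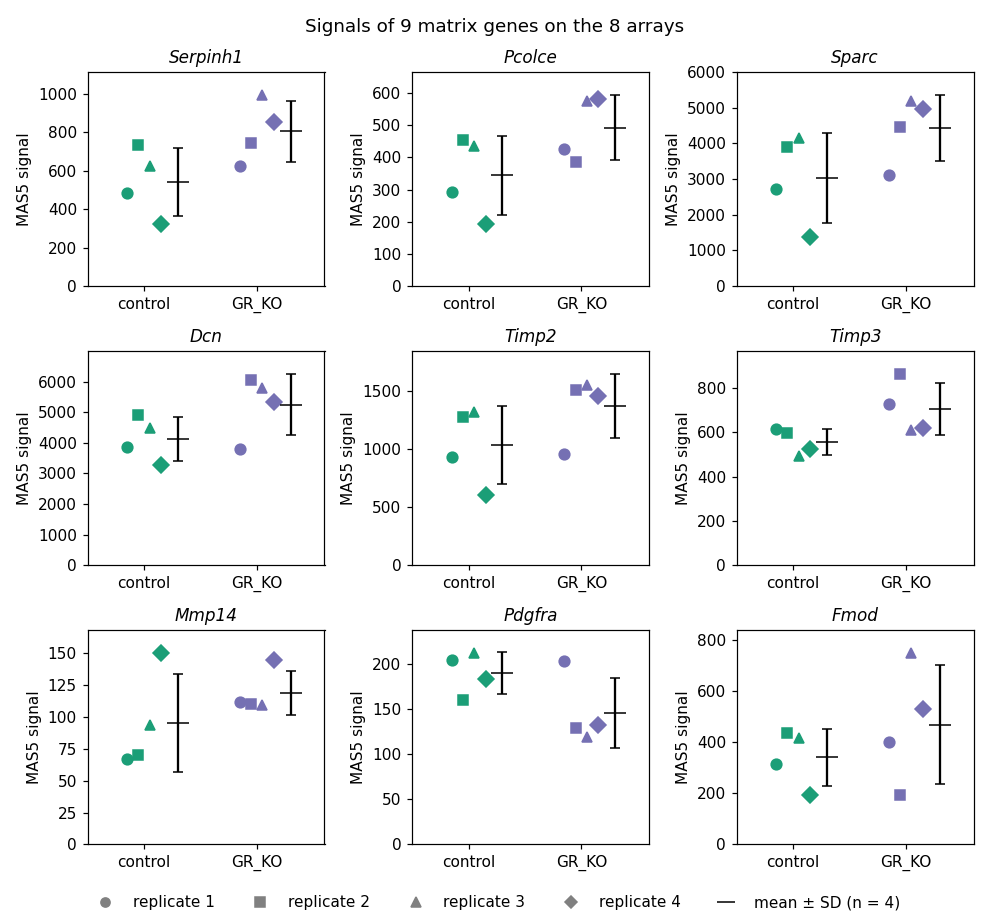
MAS5 signal (y axis, linear, starting at 0) of 9 matrix genes on the 4 control and 4 GR_KO arrays, with the replicate given by the marker shape and the mean ± SD of each group beside it. In Serpinh1, Pcolce, Sparc, Dcn, Timp2 and Fmod control replicate 4 is the lowest array, in Mmp14 it is the highest, and in Pdgfra 3 of the 4 GR_KO signals lie below every control.

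A few arrays held the lowest or the highest signal in many genes of the set. Control replicate 4 was the lowest of the 8 arrays in 20 of 33 genes, against 27.9% of all genes tested. Those 20 genes included 4 of the 5 proteoglycan and dermatopontin genes, 4 of the 5 elastic fibre genes and 3 of the 4 collagen-processing genes. It was the highest array in 2 genes, Mmp14 and, tied with GR_KO replicate 1, Lox. GR_KO replicate 2 was the lowest in 8 of 33 genes, against 11.9% of all genes, among them Lox, Postn, Lamb1 and Ccn2. GR_KO replicate 3 was the highest in 14 of 33 genes, against 13.9%, and GR_KO replicate 4 in 6 of 33, against 14.3%.

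Set against its own mean over the 8 arrays, the median gene of the set was at -0.54 on control replicate 4, the lowest of the 8. The values on control replicates 1 to 3 were -0.19, 0.09 and 0.14, and those on GR_KO replicates 1 to 4 were 0.02, -0.15, 0.35 and 0.32. So the GR_KO arrays were themselves divided, with replicates 3 and 4 above and replicates 1 and 2 within the range of controls 1 to 3. In the 20 genes that were lowest on control replicate 4, the median log2 difference was 0.35 with that array and 0.14 without it, and 17 of the 20 stayed above 0. In the other 13 it was -0.04 with it and 0.02 without it. This division was made after the values had been seen and carries no test.

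**Figure D3:**
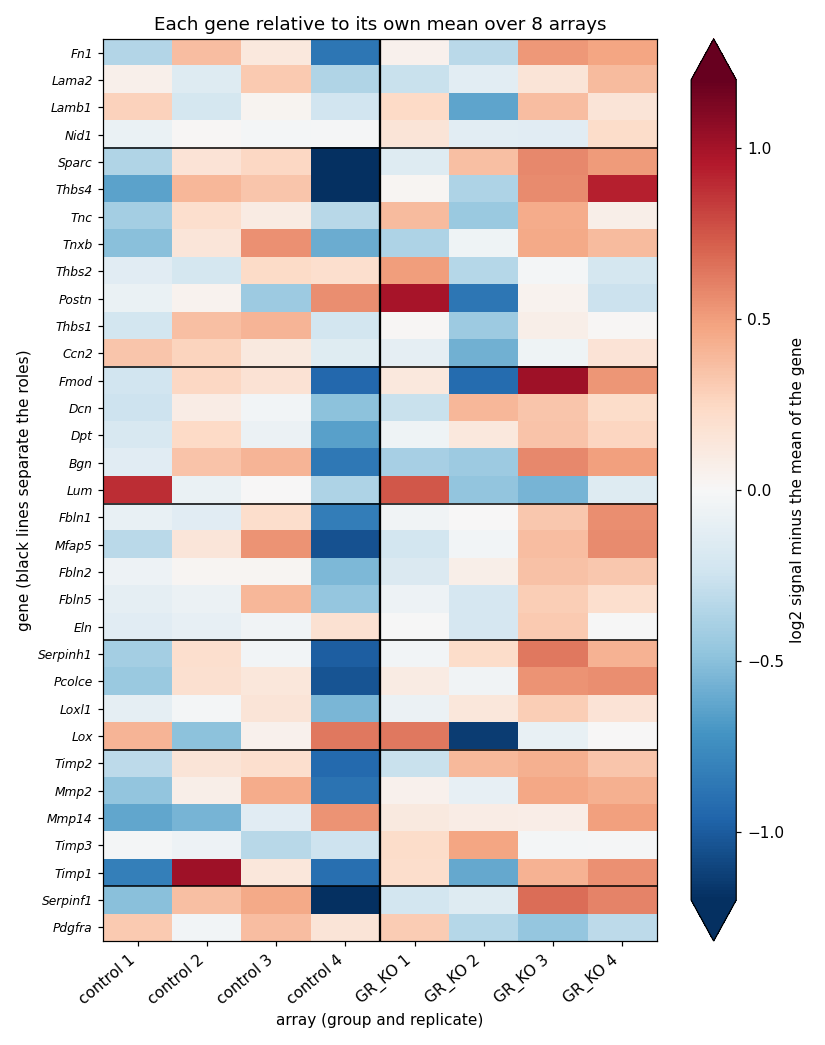
Heat map of log2 signal minus the mean of the gene over 8 arrays, with genes grouped by role on the y axis and arrays on the x axis, control to the left of the vertical line. Control replicate 4 is blue in most rows, Mmp14, Lox and Postn are red there, and GR_KO replicates 3 and 4 are red in most rows; a few cells lie beyond the ends of the colour scale.

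**Figure D4:**
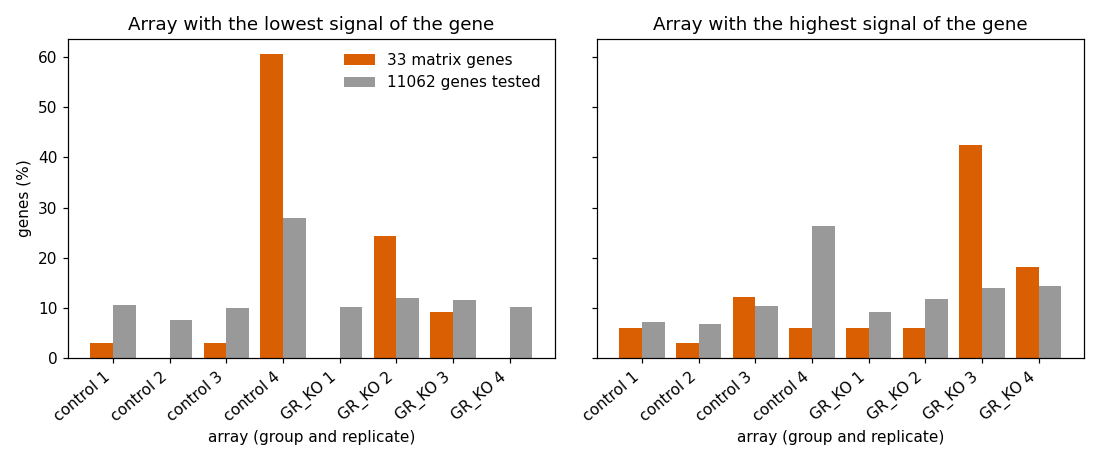
Percent of genes (y axis) for which each array (x axis) had the lowest signal, left, or the highest signal, right, for the 33 matrix genes and for all 11062 genes tested. Control replicate 4 was lowest in 20 of the 33 genes, and GR_KO replicate 3 was highest in 14.

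The set was more variable within groups than genes at large. The median SD of the log2 signal was 0.44 among controls and 0.33 among GR_KO arrays, against 0.29 and 0.26 over all genes tested. With control replicate 4 left out, the control SD of the median gene in the set was 0.28, against 0.20. In 17 of 33 genes the highest control signal was at least 2 times the lowest, and in 8 of 33 the same held among GR_KO arrays. The share of all genes with such a range was not computed, so these counts describe the set alone. Control replicate 4 was the lowest array in 20 of the 33 genes. The 95% intervals of the difference had a median width of 1.10 on the log2 scale, against 0.89 over all genes. Of the 33 intervals, 2 left out 0, those of Serpinh1 and Timp3.

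Other genes of the same pathways were also mostly a little higher in GR_KO muscle. Of 116 further genes in lists of matrix structure, collagen modification, proteolysis, TGF-beta signalling and matrix receptors, 88 were tested, 67 had a higher and 21 a lower GR_KO mean, and 0 passed the threshold. At an unadjusted p under 0.05 there were 3 of 88, of which 2 were higher and 1 lower, against 4.63% of all genes tested. Among all genes tested, 52.2% had a higher GR_KO mean. The median log2 difference of the 88 was 0.14. Without control replicate 4 it was 0.09, with 57 of 88 higher, against a median of 0.02 and 53.9% higher among all genes. That array was the lowest in 42 of the 88, against 27.9% of all genes. Ccn1, a matricellular relative of Ccn2, was lower on every GR_KO array than on any control, at 91.5 ± 6.14 against 141 ± 30.4 (SD, n = 4 each), a log2 difference of -0.60 ± 0.18 (SE, unadjusted p = 0.00554, adjusted p = 0.850). Tgfb2, a ligand of the TGF-beta receptors, was higher on every GR_KO array, at 268 ± 23.6 against 185 ± 33.2 (SD, n = 4 each), with 0.55 ± 0.16 (SE, unadjusted p = 0.00577, adjusted p = 0.850). Without control replicate 4 these differences were -0.48 and 0.43. Groups that did not overlap were thus found for 2 of the 88, against 2.58% of all genes tested, a share near that of genes at large.

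By list, 23 of 27 other structural genes had a higher GR_KO mean, with a median of 0.16, and 12 of 13 collagen-modifying enzymes, with 0.12. Without control replicate 4 these were 17 of 27 structural genes, with 0.10, and 9 of 13 enzymes, with 0.08. Among the latter Crtap, part of the prolyl 3-hydroxylation complex of collagen, had 0.48 and Plod3, a lysyl hydroxylase, had 0.26 (adjusted p = 0.880 for both), and without control replicate 4 these were 0.22 and 0.10. The higher mean was found in 8 of 12 other proteases and inhibitors, with a median of 0.08. Without control replicate 4 it was found in 6 of 12, with a median of 0.03. Ctsk, a collagen-degrading cathepsin, had 0.74 ± 0.35 (SE, adjusted p = 0.880) at signals from 12 to 47, and 0.37 without control replicate 4. In TGF-beta signalling 10 of 17 genes were higher, with a median of 0.10, and among matrix receptors 14 of 19, with 0.17. Without control replicate 4 these were 12 of 17, with 0.07, and 13 of 19, with 0.13.

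Markers of cell types that a whole muscle can hold moved between arrays too, and their part in the differences above was not tested. Collagen genes had a higher GR_KO mean in 14 of 14, and their summed signal ran from 6074 to 13831 in control and from 12462 to 16888 in GR_KO muscle, lowest on control replicate 4. Fibroblast and progenitor markers other than the set were higher in 11 of 12 tested, with sums from 8085 to 9754 and from 7826 to 11665. Without control replicate 4, 9 of 12 were higher, and the median log2 difference was 0.10, against 0.27 with it. Most of the sum was Gsn, with a mean of 6817 in control and 6754 in GR_KO muscle. For tendon cells 6 of 8 tested markers were higher, and the sums ran from 332 to 613 in control and from 393 to 756 in GR_KO muscle, with the GR_KO low on replicate 2, the array on which Fmod was low. Endothelial markers were higher in 13 of 14, with sums from 4586 to 5593 and from 5914 to 8162, and these sums carry no test. By gene, 0 of the 14 passed the threshold, and 2 of 14 had groups that did not overlap, against 2.58% of all genes tested. Schwann cell markers were higher in 5 of 5, with sums from 1031 to 3817 and from 1384 to 4089. With control replicate 4 left out, 13 of 14 collagen and 13 of 14 endothelial genes were higher. So were 6 of 8 tendon and 5 of 5 Schwann cell markers. Their median log2 differences, with and without that array, were 0.425 and 0.24 for collagen and 0.41 and 0.16 for tendon. For endothelial markers they were 0.37 and 0.27, and for Schwann cell markers 0.50 and 0.27. Macrophage and leukocyte markers were higher in 4 of 9 tested, with sums from 672 to 1890 and from 723 to 1332, and the highest sum was that of control replicate 4. None of the markers in the lists given so far was at a signal of 0 on any array, and of those given next only Myf5, a satellite cell marker, was. Muscle fibre markers were higher in 4 of 18, and in 15 of 18 without control replicate 4. Smooth muscle and pericyte markers were higher in 6 of 10 tested, satellite cell markers in 3 of 6 and erythrocyte markers in 2 of 2. Adipocyte markers were higher in 1 of 4, and in 3 of 4 without control replicate 4, whose summed signal of 30772 lay above the range of 12286 to 17929 on the other 7 arrays. That sum reflects mainly Car3, with control signals from 9829 to 25225, whereas Adipoq had control signals from 19 to 87. It is therefore not a measure of fat content.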

How the data were processed

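Total RNA of 8 gastrocnemius samples, 4 control and 4 GR_KO, was labelled with biotin and hybridised to Affymetrix arrays. The deposited table held signal intensities on a linear scale for 45101 probe sets, made with MAS5 per the submitters' processing notes, with no version named. All values were whole numbers, and the trimmed mean was 99.96 on each array, so array scaling preceded deposit and levels are relative to it. Precision is limited by the number of arrays.

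The 64 control probe sets were left out. Of the rest, 34945 had 1 gene symbol, 932 several and 9160 none in the platform annotation; symbols were updated through RefSeq gene identifiers (34741 matched). A signal of 0 took the lowest positive value on its array before log2, with no pseudocount. Each gene stood as its brightest probe set, and genes were tested above the median of all probe sets (19.4). The test was limma 3.58.1 in R 4.3.3 (lmFit, eBayes with trend, two-sided, Benjamini-Hochberg over all 11062 genes), checked on simulated data; Python 3.11.15 did the rest. Of ties for the lowest or highest array, the first array was counted.

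The set, its lists and tests were chosen with earlier results of these data known. The 12 genes of the set with the smallest p, and those whose probe sets above the signal filter differed in sign, are given on every array. Of other pathway lists up to 3 genes with the smallest p could be named. Alternatives were quantile normalization, median centring, a pseudocount of 16, no filter or the 70th percentile, averaged or median probe sets, eBayes without trend, array weights, a replicate block, a spike-in covariate and leaving out each array.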

Additional observations from a re-analysis of the deposited data

Results flagged for a closer look

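Within groups of 4 arrays, 4 of the 66 combinations of gene and group had 1 array set far from the others. On the log2 scale its gap to the nearest array was larger, as a share of the whole range, than Dixon's 95% critical value. The signals given below are linear. Chance flags about 5% of such groups. Fbln2 was 209 on control replicate 4, with the next control at 291. Timp2 was 961 on GR_KO replicate 1, with the next GR_KO array at 1455. Thbs1 was 19 on GR_KO replicate 2, next to 26, and Mmp14 was 145 on GR_KO replicate 4, next to 112. Of these, the Fbln2 value lies on the array that was lowest for 20 of the 33 genes, and the other 3 lie on 3 different GR_KO arrays.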

How the results depend on the processing

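The count of genes of the set past the threshold was 0 under all 19 alternatives, and the smallest adjusted p of any gene was 0.419, for Dcn, Pdgfra and Serpinh1 without GR_KO replicate 1. The median log2 difference stayed between 0.12 and 0.36, and the genes with a higher GR_KO mean ran from 19, of the 25 tested with the median probe set, to 29 of 33, without GR_KO replicate 2. The number of genes whose groups did not overlap was 0 with all arrays but 1 with probe sets averaged (Sparc, of 28 tested, against 3.03% of all genes), and from 0 to 6 with 1 array left out; the 6, without GR_KO replicate 1, were Dcn, Fbln2, Pdgfra, Serpinh1, Sparc and Timp2, against 12.4% of all genes. Of the 33 genes 23 kept their sign under every alternative that tested them, 20 higher and 3 lower. Some alternatives could not change a sign. No filter, the 70th percentile filter, eBayes without trend and the replicate block leave the difference of each gene as in the main fit. With probe sets averaged, Eln had -0.46, Lamb1 -0.0891, Nid1 -0.11 and Thbs2 0.21; with the median probe set, Eln had -0.98, Lamb1 -0.0216 and Thbs2 0.59. Quantile normalization gave Thbs2 0.031 and Postn 0.0017, and the spike-in covariate gave Postn 0.0134. With 1 array left out the ranges crossing 0 were -0.15 to 0.28 for Bgn, -0.0442 to 0.13 for Eln, -0.0167 to 0.27 for Fbln5, -0.0446 to 0.19 for Lama2, -0.0488 to 0.29 for Lamb1, -0.56 to 0.0319 for Lox, -0.51 to 0.0374 for Lum, -0.0088 to 0.11 for Nid1, -0.38 to 0.24 for Postn and -0.21 to 0.0657 for Thbs2. The cause was not tested. Same-numbered arrays of the 2 groups had correlations of deviations of -0.19, 0.18, 0.11 and -0.39. With so few arrays these values cannot decide whether equal numbers mark paired samples, and the labels do not say. The replicate block left 0 genes of the set past the threshold. Its median of 0.28 was bound to equal that of the main fit, because a balanced block leaves each difference unchanged. Signals near the filter, as for Fbln1, Thbs1, Lox and Timp1, limit what these arrays can show.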
